A study of Mus musculus with 6 samples.

Results

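The genes described here were 9 transcription factors of the neural crest and Schwann cell lineage, Sox10, Pou3f1, Egr2, Foxd3, Tfap2a, Tfap2b, Sox2, Zeb2 and Ets1, among the 23073 genes with a value in the deposited files. They were chosen by name, as known regulators of the lineage, and were matched to the Ensembl gene identifiers of the files. All 9 were found, with a value in each library. RNA-Seq was performed on diaphragm muscle at E14.75 in 6 libraries, 2 per group, and the values were RPKM, in which the reads of a gene are divided by its length and by the depth of the library. The erbB3 wild-type libraries, numbered 5 and 6, and the erbB3 mutant libraries, numbered 1 and 2, held total RNA of whole muscle, and the labels describe the mutant muscle as tissue without Schwann cells. ErbB3 is a receptor for neuregulin, and the mutants lack it in all cells of the embryo, not in Schwann cells alone. The Wnt1-Ribotag libraries, numbered 1 and 2, came from embryos with the Wnt1-Cre transgene and 1 Ribotag allele, in which Cre switches on an HA-tagged ribosomal protein, Rpl22, in neural crest derived cells. RNA bound to tagged ribosomes was precipitated with an HA antibody from pooled diaphragms of a litter, and the labels give these animals as wild-type at erbB3. The methods describe the litter as homogenized before it was genotyped and each sample as a pool of Cre-positive diaphragms, so a share of Cre-negative tissue cannot be told apart. Wnt1-Cre acts in all derivatives of the neural crest, so that the tag is not limited to Schwann cells. The Ribotag libraries have no control precipitate in these data, and their contrast with whole muscle changes the preparation of the RNA together with the cells sampled. The groups are labelled biological replicates, and with 2 samples per group the p-values measure the spread between these samples only.

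Schwann cells arise from neural crest cells through Schwann cell precursors, which travel along growing nerves and depend on axonal neuregulin acting on ErbB receptors. Sox10 is needed at each step of that path and acts on the genes of the receptors and of myelin, together with Pou3f1 (also called Oct6 or SCIP) and later Egr2 (Krox20), the factor that drives myelination. Foxd3, the AP-2 factors Tfap2a and Tfap2b, Zeb2 and Ets1 are used earlier in the crest. Zeb2 is also used later, as Schwann cells differentiate, and Sox2 in immature Schwann cells. Several of these genes are also used in other derivatives or in tissues outside the crest.

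Sox10, Pou3f1 and, at lower levels, Sox2 and Tfap2a had their lowest values in the mutant and their highest in Ribotag RNA. Ets1 had the same order over a narrow range, and Tfap2b was also lowest in the mutant. Foxd3 was high in Ribotag RNA, and its mutant libraries overlapped those of wild-type. Tfap2b, Tfap2a and Sox2 differed several-fold between replicates of the Ribotag group, Egr2 was low in all libraries, and Zeb2 and Ets1 varied less than 2-fold over all 6.

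**Figure D1:**
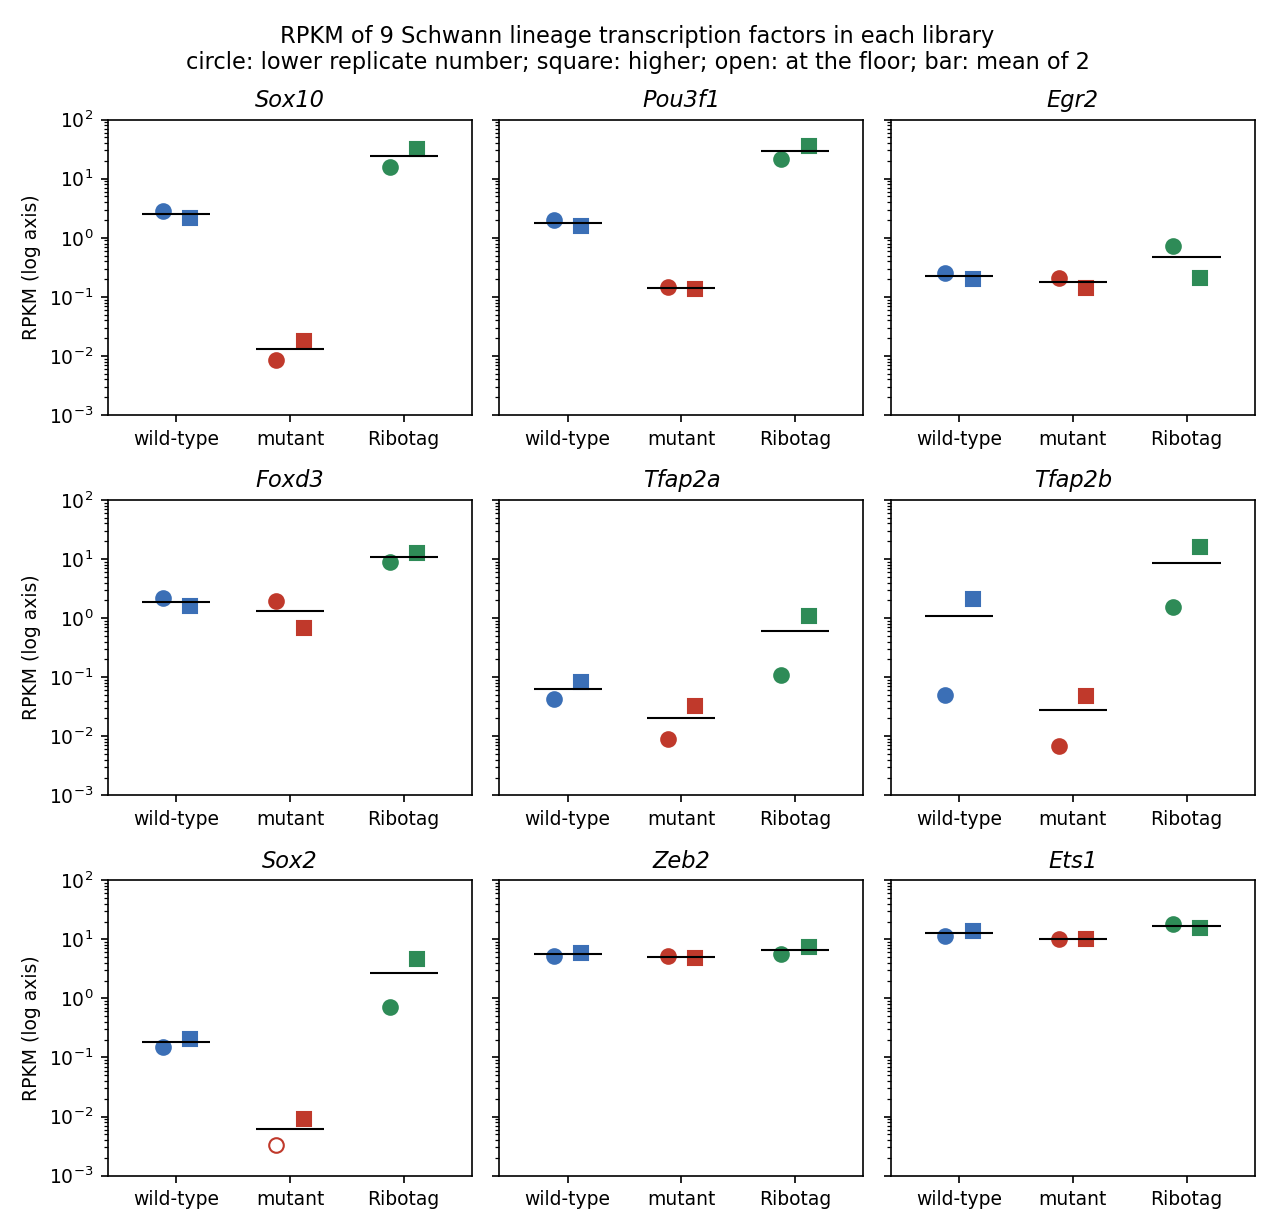
RPKM of each of the 9 genes (log axis) in the 6 libraries, with blue for erbB3 wild-type, red for erbB3 mutant and green for Wnt1-Ribotag, circles for the lower and squares for the higher replicate number, and a bar at the mean of 2 libraries. Sox10 spans 0.00854 to 32.2 RPKM over the libraries and Zeb2 only 4.88 to 7.33; the open symbol marks Sox2 in mutant 1, at the floor.

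Sequencing depth, read from the floor value that the files give in place of 0, was between 100178863 and 230216660 mapped reads, and between 17205 and 20349 genes lay above the floor. Erbb3 itself, the targeted gene, was at 16.5 and 15.8 RPKM in wild-type, 21.5 and 11.9 in the mutant and 19.5 and 25.3 in Ribotag RNA. Its transcript level therefore did not tell the genotypes apart. The defining markers of skeletal muscle were present in all libraries, with a summed RPKM of 10 genes between 1720 and 3335, also in Ribotag RNA. The summed RPKM of 17 markers of Schwann cells and their precursors, which other cells also express in part, was 129 to 136 in wild-type, 107 to 126 in the mutant and 297 to 554 in Ribotag RNA. That sum was carried by abundant genes such as Pmp22 (45.5 to 60.8 RPKM over the libraries). Of the 14 of these markers tested in mutant against wild-type 12 were lower and 4 passed the limma threshold described below, all lower, where 0.171% of all genes passed. The summed RPKM of 9 liver genes was 158 to 513 in wild-type, 12.5 to 20.6 in the mutant and 201 to 300 in Ribotag RNA, lowest in the mutant as for Sox10 but within the wild-type range in Ribotag RNA. Its part in the results was not tested. The 13 neuron markers are given below, beside the genes they moved with.

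Differences were taken on log2(RPKM + 0.5) and tested with limma across all genes whose mean over the 4 libraries of a comparison was at least 0.5 RPKM. With the added 0.5 these values understate the change of low genes, so RPKM are given first. In mutant against wild-type muscle 6 of the 9 genes passed that filter, all but Egr2, Tfap2a and Sox2. In both Ribotag comparisons 7 passed, all but Egr2 and Tfap2a. Each group entered 2 of the 3 comparisons, so that the comparisons share libraries and are given side by side.

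Sox10, the SoxE factor that defines the glial lineage of the crest (chr15:79154908-79165240 on GRCm38, minus strand, several exons), had 2.89 and 2.16 RPKM in wild-type muscle. It had 0.00854 and 0.0178 RPKM in the mutant, which over the annotated exonic length of 3051 bases is about 3.41 and 12.5 reads. It had 15.5 and 32.2 RPKM in Ribotag RNA. The 3 groups did not overlap, and the mutant libraries were the lowest by far. Here and below, the share of all genes with no overlap was not counted. An exact permutation test of 2 against 2 libraries cannot go below 0.33. The mean of the mutant was 0.521% of wild-type, with 0.296% to 0.822% in the 4 pairs of libraries, and the few reads behind it leave this ratio imprecise. Sox10 fell by 2.55 on the log2 scale in the mutant (SE 0.18, limma adjusted p = 0.0064, 2 against 2 libraries), and the size of that difference depended on the pseudocount, being -6.79 with 0.01 and -1.79 with 1 in its place. With any of the 4 libraries left out the difference lay between -2.72 and -2.38. The call was lost with no filter (limma adjusted p = 0.141) and with all 6 libraries in the fit (0.224).

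In Ribotag RNA the mean of Sox10 was 9.45-fold that of wild-type muscle, between 5.38- and 14.9-fold over the pairs. That difference of 2.93 on the log2 scale (SE 0.38) had a limma adjusted p of 0.134. With any 1 of the 4 libraries left out the difference lay between 2.42 and 3.44. Against the mutant the difference was 5.48 (SE 0.38, limma adjusted p = 0.00641), a call lost with no filter (0.0593). In whole muscle, fewer cells of a type and less RNA per cell cannot be told apart in a lower value such as that of Sox10 in the mutant. In the last comparison genotype and RNA preparation differ together, and their shares in a difference cannot be told apart.

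Pou3f1, a POU factor of the transition from immature to myelinating Schwann cells (chr4:124656807-124660655 on GRCm38, plus strand, a single exon), had 1.97 and 1.56 RPKM in wild-type muscle, 0.147 and 0.135 in the mutant and 21.5 and 36.4 in Ribotag RNA. Its groups did not overlap either, and it was the highest of the 9 genes in both Ribotag libraries. The mutant mean was 7.97% of wild-type (6.82% to 9.42% in the pairs), a higher share than the 0.521% of Sox10. Pou3f1 fell by 1.82 on the log2 scale (SE 0.17, limma adjusted p = 0.00821). The call was lost without mutant 1 (adjusted p = 0.0506) and without mutant 2 (adjusted p = 0.0626), with nearly the same difference, and also with no filter (adjusted p = 0.168) and with all 6 libraries in the fit (0.341). In Ribotag RNA its mean was 16.4-fold that of wild-type (10.9- to 23.3-fold), a difference of 3.66 on the log2 scale (SE 0.30, limma adjusted p = 0.106). With any 1 of the 4 libraries left out that difference lay between 3.29 and 4.03. Against the mutant the difference was 5.48 (SE 0.32, limma adjusted p = 0.0046), again lost with no filter (0.0519). The annotation has an antisense gene, Gm2164, over Pou3f1, and whether the counting used strand is not given in the sources used here, so its reads could be part of these values.

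The RPKM of Pou3f1 was 0.683 and 0.722 times that of Sox10 in the wild-type libraries and 1.39 and 1.13 times in Ribotag RNA. In the mutant this ratio was 17.2 and 7.57, so Pou3f1 was more abundant than Sox10 in the mutant and Ribotag libraries and less abundant in wild-type. Among the 5 genes whose log2 values followed Sox10 most closely over the 6 libraries were Gpr17 (Pearson r = 0.999), Col20a1 (0.991), Gjc3 (0.988) and Pou3f1 (0.988), out of 225 genes that varied enough to be compared. Gjc3 encodes a connexin of myelinating glia. For Pou3f1 the closest 5 included Lgi4 (0.997), Fam210b (0.996), Gjc3 (0.996) and a gene without a symbol (0.995), among 216. These values describe 6 libraries in 3 groups, which any gene of the same group order follows.

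**Figure D2:**
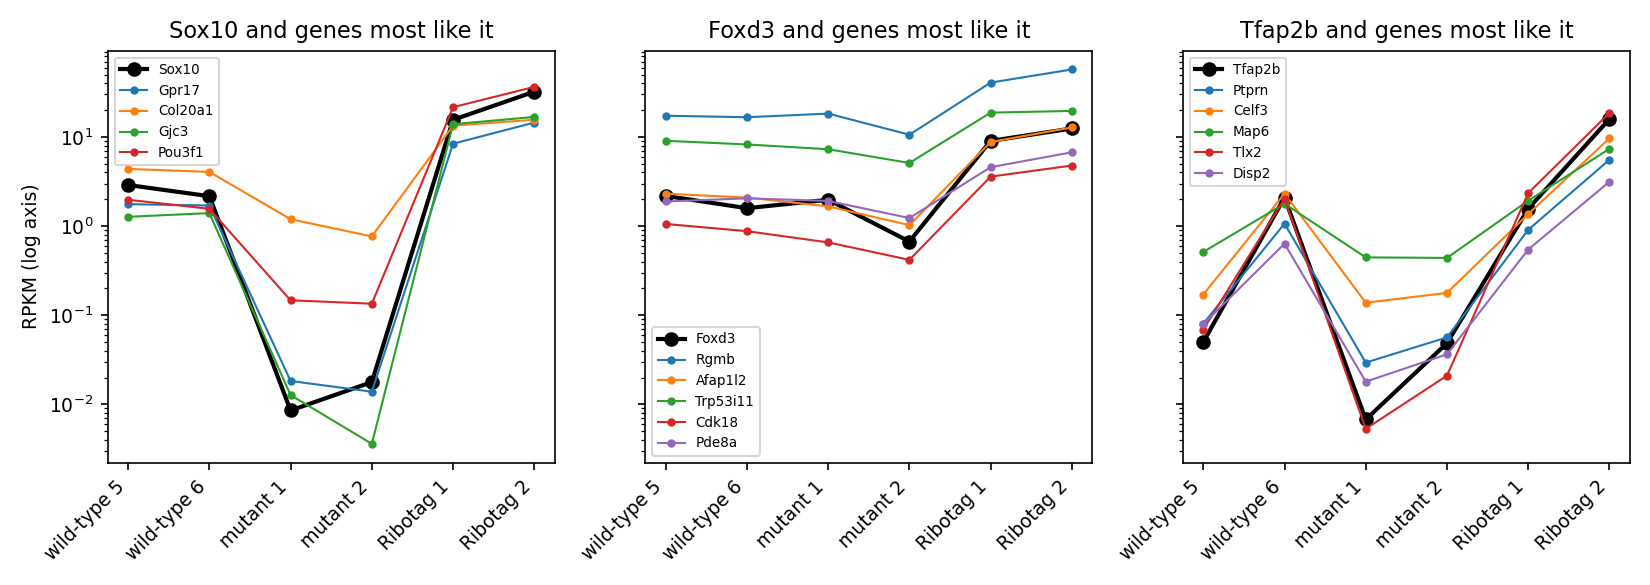
RPKM (log axis) of Sox10, Foxd3 and Tfap2b, in black, and of genes among the 5 most like each, in colour, in the 6 libraries in the order wild-type, mutant, Ribotag. The Sox10 panel drops in both mutant libraries, the Foxd3 panel is lowest in mutant 2 (0.670 RPKM) and highest in Ribotag RNA, and the Tfap2b panel is high in wild-type 6 and both Ribotag libraries.

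Egr2, the zinc-finger factor that drives myelination (chr10:67535475-67542188 on GRCm38, plus strand), was at 0.254 and 0.199 RPKM in wild-type muscle, 0.209 and 0.142 in the mutant and 0.723 and 0.213 in Ribotag RNA. Only Ribotag 1 stood above the rest, 3.40-fold over Ribotag 2, and the other 5 libraries lay between 0.142 and 0.254. The mutant overlapped wild-type, with a mean of 77.6% of it. Egr2 was below the filter in all 3 comparisons, and an exact permutation test of 2 against 2 libraries cannot go below 0.33.

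Foxd3, a forkhead repressor that specifies the neural crest and is kept in its glial derivatives (chr4:99656299-99658622 on GRCm38, plus strand, a single exon), had 2.18 and 1.59 RPKM in wild-type muscle, 1.97 and 0.670 in the mutant and 9.02 and 12.4 in Ribotag RNA. Mutant 1 lay between the wild-type libraries and mutant 2 below both, so the groups of whole muscle overlapped, while both Ribotag libraries were above the other 4. The mutant values rest on about 599 and 359 reads over the annotated length, against about 3.41 and 12.5 for Sox10. The mutant mean was 70.2% of wild-type, with a range of 30.8% to 124% over the pairs. The difference on the log2 scale was -0.48 (95% confidence interval -1.23 to 0.28, limma adjusted p = 0.519), and without mutant 2 it turned to 0.06. Without mutant 1 it was -1.02 (adjusted p = 0.0762).

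Foxd3 in Ribotag RNA was 5.70-fold its wild-type mean, 4.14- to 7.83-fold in the pairs. The difference of 2.23 (SE 0.26) against wild-type had a limma adjusted p of 0.134, and lay between 2.01 and 2.45 with 1 library left out. The difference of 2.71 (SE 0.40) against the mutant had a limma adjusted p of 0.0377. That call was lost with no filter on low values (adjusted p = 0.144) and with quantile normalization (0.0667). Relative to Sox10 in the same library, Foxd3 was at 0.754 and 0.734 in wild-type, 231 and 37.7 in the mutant and 0.580 and 0.386 in Ribotag RNA. The 5 genes most like Foxd3 were Rgmb (Pearson r = 0.995), Afap1l2 (0.989), Trp53i11 (0.987), Cdk18 (0.986) and Pde8a (0.986), among 1179. None of the genes most like Sox10 was among them. Those were drawn from only 225 genes, by the rule on spread, and Sox10 itself had r = 0.918 with Foxd3. The lists therefore do not show that the patterns differ.

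Tfap2b encodes AP-2 beta, which is used in the crest and in sympathetic neurons (chr1:19208914-19238576 on GRCm38, plus strand). It had 0.05002 and 2.09 RPKM in wild-type muscle, 0.00677 and 0.0486 in the mutant and 1.56 and 15.9 in Ribotag RNA. Wild-type 6 was 41.8-fold above wild-type 5 and also lay above Ribotag 1 (2.09 against 1.56), and Ribotag 2 was 10.2-fold above Ribotag 1. The spread within wild-type exceeded the 38.6-fold ratio of the wild-type to the mutant mean. Mutant and wild-type did not overlap, but mutant 2 was at 97.2% of wild-type 5. The difference of mutant and wild-type was -1.18 on the log2 scale (SE 0.59, limma adjusted p = 0.441), and without wild-type 5 it was -2.30, a value that rests on wild-type 6 alone. The difference of Ribotag and wild-type was 2.28 (SE 1.19, limma adjusted p = 0.355), and that of Ribotag and mutant 3.46 (SE 0.88, adjusted p = 0.131). Without Ribotag 1 they were 3.78 and 4.96, and without Ribotag 2 they were 0.79 and 1.97. Without wild-type 5 the former was 1.17.

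Tfap2a, which encodes AP-2 alpha, a factor of the early crest and of Schwann cell precursors (chr13:40715302-40738376 on GRCm38, minus strand), was lower, with 0.0435 and 0.0820 RPKM in wild-type muscle, 0.00890 and 0.0325 in the mutant and 0.109 and 1.09 in Ribotag RNA. Only Ribotag 2 exceeded the minimum of 0.5, and it was 9.97-fold above Ribotag 1. The groups did not overlap, but the gene was below the filter in all comparisons. The antisense genes Gm26688, Gm47061 and Gm47067 overlap it in the annotation.

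Sox2, a SoxB factor of neural stem cells and of immature Schwann cells (chr3:34650405-34652461 on GRCm38, plus strand, a single exon), had 0.152 and 0.209 RPKM in wild-type muscle. In the mutant it was at the floor in mutant 1, listed as 0.00325, and at 0.00918 in mutant 2, about 4.35 reads. It had 0.703 and 4.65 RPKM in Ribotag RNA, 6.62-fold apart. The 3 groups did not overlap, with the mutant lowest. The mutant mean was 3.44% of wild-type (1.56% to 6.02% in the pairs), from a few reads. With mutant 1 at the floor, that mean and the lower end of the range are upper limits. In mutant against wild-type Sox2 was below the filter and so was not counted among genes that differed. When all genes were tested without a filter its difference of -0.43 on the log2 scale had a limma adjusted p of 0.248. The Ribotag differences were 1.87 against wild-type (SE 0.73, limma adjusted p = 0.254) and 2.30 against the mutant (SE 0.69, adjusted p = 0.167). Without Ribotag 1 the values were 2.92 and 3.35. Sox2 lies within Sox2ot on the same strand, and reads of that transcript could be counted with it.

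Tfap2b, Tfap2a and Sox2 were highest in Ribotag 2, as were Sox10, Pou3f1, Foxd3, Zeb2 and 11 of 13 neuron markers. The summed RPKM of 13 neuron markers was 13.7 and 66.7 in wild-type 5 and 6, 9.56 and 11 in the mutants and 128 and 556 in the Ribotag libraries. Of the 13 markers, 12 were higher in wild-type 6 than in wild-type 5, by a median of 5.03-fold, and 12 were higher in Ribotag 2 than in Ribotag 1, by a median of 4.13-fold. Of the markers, 1 was at the floor in 1 library, the cholinergic gene Chat in Ribotag 1. Th, the first enzyme of catecholamine synthesis, had 0.286 and 5.01 RPKM in wild-type, 0.0484 and 0.101 in the mutant and 5.51 and 38.9 in Ribotag RNA. Tfap2b in wild-type 6 was 41.8-fold its level in wild-type 5, against 1.89-fold for Tfap2a, 1.37-fold for Sox2 and 0.749-fold for Sox10. In Ribotag 2 over Ribotag 1, Tfap2b, Tfap2a and Sox2 were 10.2-, 9.97- and 6.62-fold higher and Sox10 2.07-fold. In mutant 2 over mutant 1, where 10 of the 13 markers were higher by a median of 1.48-fold over the 13 and the sum by 1.15-fold, these genes were at 7.18-, 3.65- and 2.82-fold, at values that rest on few reads, and Sox10 at 2.08-fold. Sox2 was at the floor in mutant 1, so its ratio there is a lower limit. The part of neuronal RNA in the values of Tfap2b, Tfap2a and Sox2 was not tested. Wild-type 6 and Ribotag 2 were also the deeper library of their group, at 229922644 against 100178863 and 171266729 against 122770245 mapped reads.

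The 5 genes most like Tfap2b were Ptprn (Pearson r = 1 when rounded), Celf3 (0.997), Map6 (0.997), Tlx2 (0.996) and Disp2 (0.996), among 441. Tlx2, a homeobox gene of autonomic neurons, rose to 2.03 RPKM in wild-type 6 and 18.6 in Ribotag 2 and was at 0.0691 in wild-type 5. For Sox2 they were Snx10 (0.999), Rab27a (0.998), Cacng5 (0.997), C1ql1 (0.996) and Crtac1 (0.996), among 1348. Among the members themselves, over the same 6 libraries, Tfap2b had r = 0.969 with Zeb2, 0.934 with Sox2, 0.910 with Tfap2a and 0.831 with Sox10, Tfap2a had r = 0.972 with Sox2, and Sox10 had r = 0.988 with Pou3f1 and 0.918 with Foxd3.

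**Figure D3:**
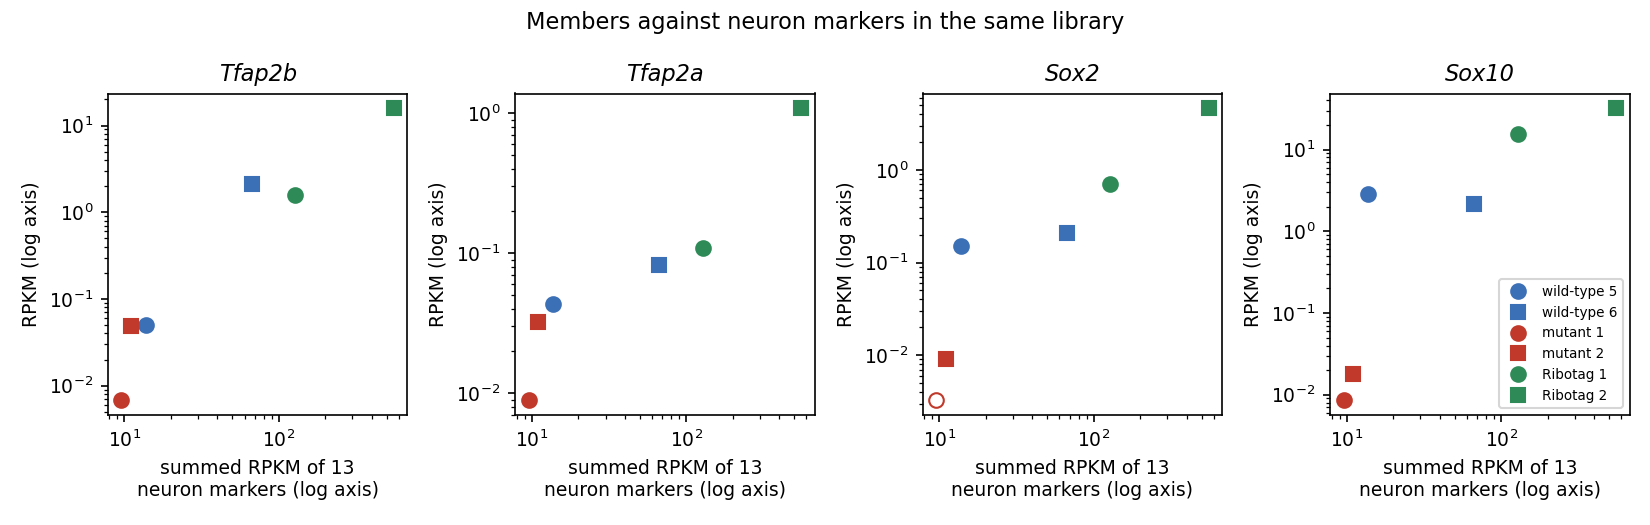
RPKM of Tfap2b, Tfap2a, Sox2 and Sox10 (log axis) against the summed RPKM of 13 neuron markers (log axis), 1 point per library, with the colours and symbols of the groups in the key and an open symbol at the floor. Tfap2a and Sox2 increase with the marker sum through all 6 libraries and Tfap2b through all but wild-type 6 and Ribotag 1, whereas Sox10 is lower in wild-type 6 (marker sum 66.7) than in wild-type 5 (13.7).

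The stretches before the start of Foxd3, Tfap2b and Sox2 are shown because these genes, of the 6 with an entry in the RefSeq promoter table, passed the filter in Ribotag RNA and exceeded wild-type more than 5-fold in mean RPKM. Each is the 250 bases before the RefSeq start on GRCm38.p6, in the direction of the gene, with matches to the searched motifs in capitals. The Ensembl gene of Tfap2b given above starts further upstream, so its stretch lies within that gene. That of Sox2 starts further downstream, at 34650405, so its stretch does not adjoin that gene.
Foxd3, chr4:99656049-99656298, plus strand: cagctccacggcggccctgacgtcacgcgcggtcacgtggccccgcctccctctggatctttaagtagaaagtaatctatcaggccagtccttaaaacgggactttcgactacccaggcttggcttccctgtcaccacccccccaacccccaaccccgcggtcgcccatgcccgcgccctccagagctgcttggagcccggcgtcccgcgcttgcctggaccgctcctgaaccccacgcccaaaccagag
Tfap2b, chr1:19211804-19212053, plus strand: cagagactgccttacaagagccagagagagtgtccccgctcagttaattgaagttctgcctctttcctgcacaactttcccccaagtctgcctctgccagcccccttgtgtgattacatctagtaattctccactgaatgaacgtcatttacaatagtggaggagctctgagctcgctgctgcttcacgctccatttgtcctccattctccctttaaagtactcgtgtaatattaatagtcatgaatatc
Sox2, chr3:34649745-34649994, plus strand: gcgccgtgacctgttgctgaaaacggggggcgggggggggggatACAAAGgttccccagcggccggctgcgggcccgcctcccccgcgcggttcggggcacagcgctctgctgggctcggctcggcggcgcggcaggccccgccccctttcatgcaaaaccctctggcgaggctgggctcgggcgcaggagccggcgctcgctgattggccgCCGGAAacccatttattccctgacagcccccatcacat
The motifs were ACAAAG or ACAATG for Sox factors, GCCNNNGGC for AP-2, CACCTG for Zeb, GCGNGGGCG for Egr and CCGGAA for Ets factors, searched on both strands. They were found in 25.2%, 13.7%, 17.2%, 4.70% and 12.0% of all 32851 promoters, in that order. The Sox2 stretch held ACAAAG 206 bases before the RefSeq start and CCGGAA 38 bases before it. No match lay in the stretches of Foxd3 and Tfap2b. The GC content was 65.6% for Foxd3, 46.4% for Tfap2b and 72.0% for Sox2, against a median of 52.4% over all promoters. These are matches of letters only.

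Zeb2, a zinc-finger repressor that Schwann cells need to differentiate and that many mesenchymal cells use (chr2:44983632-45117395 on GRCm38, minus strand), had 5.24 and 5.93 RPKM in wild-type muscle, 5.29 and 4.88 in the mutant and 5.63 and 7.33 in Ribotag RNA. The libraries of the mutant and of Ribotag RNA both overlapped wild-type. The difference of mutant and wild-type was -0.12 on the log2 scale (95% confidence interval -0.47 to 0.22, limma adjusted p = 0.706), a direction that turned under quantile normalization (0.02). The difference of Ribotag and wild-type was 0.19 (interval -0.35 to 0.73, limma adjusted p = 0.653) and that of Ribotag and mutant 0.31 (interval -0.28 to 0.90, adjusted p = 0.525). The antisense gene Zeb2os overlaps Zeb2 and was at 3.96 to 7.91 RPKM over the libraries.

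Ets1, the founding Ets factor, expressed in cranial and cardiac crest and in endothelial and lymphoid cells (chr9:32636221-32757820 on GRCm38, plus strand), had 11.3 and 13.9 RPKM in wild-type muscle, 10.3 and 9.97 in the mutant and 18.2 and 15.6 in Ribotag RNA. It was the highest of the 9 genes in all 4 libraries of whole muscle, and its groups did not overlap although they lay close together. The difference of mutant and wild-type was -0.30 on the log2 scale (95% confidence interval -0.64 to 0.05, limma adjusted p = 0.445). Ribotag RNA was higher by 0.41 than wild-type (SE 0.20, limma adjusted p = 0.319) and by 0.71 than the mutant (SE 0.22, adjusted p = 0.175). Without Ribotag 2 these differences were 0.52 and 0.81. Without Ribotag 1 they were 0.30 and 0.60, and without wild-type 5 the former was 0.27. Endothelial markers, 10 genes, summed to 68.3 and 74.0 RPKM in wild-type, 77.2 and 60.6 in the mutant and 63.1 and 71.6 in Ribotag RNA.

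In order of level, Ets1 and Zeb2 led in all 4 libraries of whole muscle, followed by Sox10 in wild-type and by Foxd3 in the mutant. In wild-type Sox10, Foxd3 and Pou3f1 had means of 2.53, 1.88 and 1.77 RPKM and SDs of 0.513, 0.418 and 0.291 (n = 2). The order Sox10, Foxd3, Pou3f1 held within each wild-type library, although the 2 libraries of Foxd3 overlapped in level those of both other genes. In the mutant the mean of Foxd3 was 1.32 RPKM and that of Egr2 0.176, while Sox10 ranked 7 and 8 of the 9. In Ribotag RNA Pou3f1 came first in both libraries, with a mean of 29.0 RPKM (SD 10.5), and was 1.39 and 1.13 times Sox10 in the same libraries, which had a mean of 23.9 (SD 11.7).

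Counted together, 2 of the 6 genes tested passed the limma threshold in mutant against wild-type, Sox10 and Pou3f1, both lower, where 24 of 14052 genes did (0.171%). The same 2 differed at least 2-fold on that scale in all 4 pairs, against 0.448% of all genes tested. The median difference of the 6 was -0.83 on the log2 scale, beside -0.10 over all genes. Median-ratio scaling moved the difference of all genes by 0.12 in size in this comparison, and both calls were kept with it.

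In Ribotag RNA against wild-type, 0 of the 7 genes tested passed limma's adjusted threshold, where 1 of 14418 genes did (0.00694%), and 4 of the 7 had an unadjusted p under 0.05, as did 19.5% of all genes tested. On log2(RPKM + 0.5), Sox10, Pou3f1 and Foxd3 were at least 2-fold higher in all 4 pairs, against 2.34% of all genes in either direction. Sox2 was between 3.37- and 30.5-fold higher in RPKM in the pairs, and 4 members were counted with a pseudocount of 0.1 or 0.01. The median of the 7 was 2.23 on the log2 scale, and -0.05 over all genes. With the spread estimated over all 6 libraries, Pou3f1 (adjusted p = 0.0107) and Sox10 (0.0256) passed. In Ribotag RNA against the mutant 3 of 7 passed, all higher, Sox10, Pou3f1 and Foxd3, where 1.19% of all genes tested did. With Tfap2b and Sox2, 5 were at least 2-fold higher in all pairs on log2(RPKM + 0.5), against 3.95% of all genes. The median of the 7 was 2.71, beside 0.04 over all genes. In the comparisons with the mutant, Sox10, Pou3f1 and Tfap2b, and in those with Ribotag RNA Sox2, passed the filter only through the group in which they were high, so these counts and medians over the genes tested are no support for a difference. Of these 3 calls none remained without a filter.

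**Figure D4:**
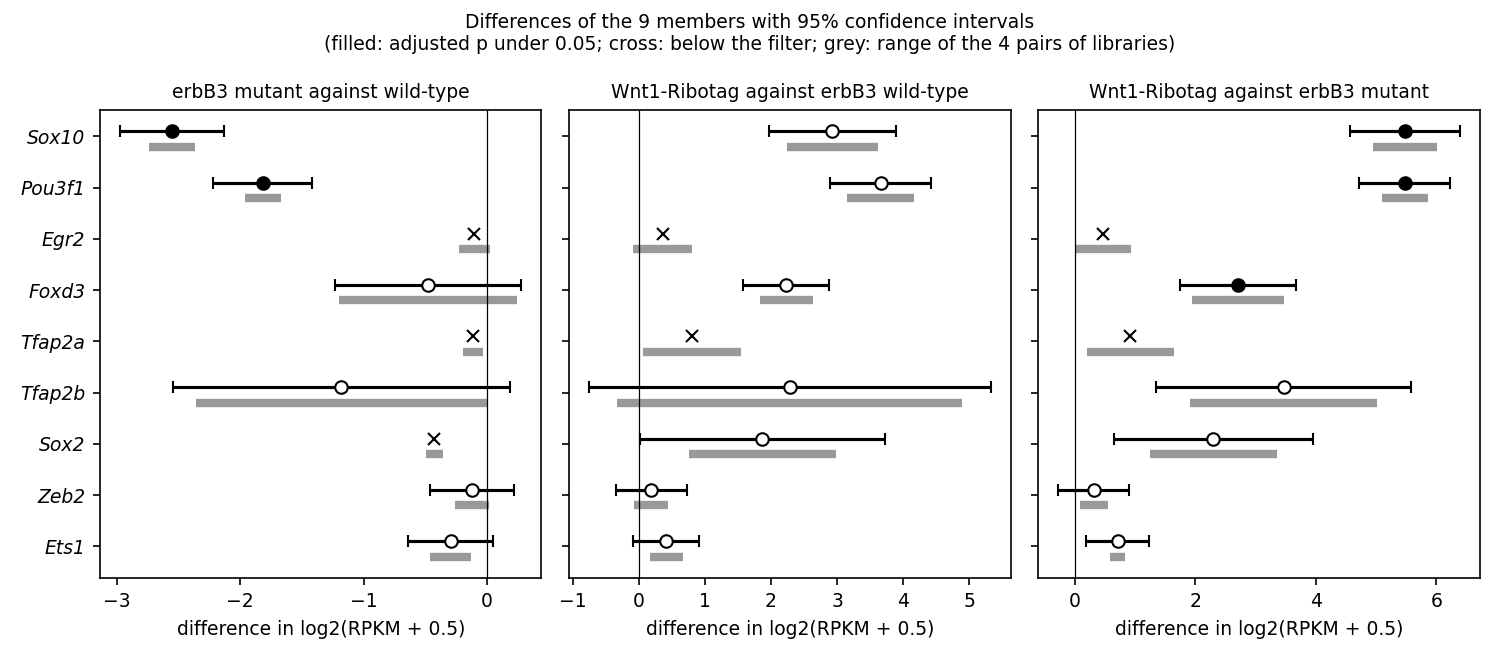
Differences in log2(RPKM + 0.5) of the 9 genes in the 3 comparisons, with points for the limma estimate, bars for its 95% confidence interval, filled points for adjusted p under 0.05, crosses for genes below the filter and grey bars for the range of the 4 pairs of libraries. Sox10 and Pou3f1 are filled in the left panel (-2.55 and -1.82), no gene is filled in the middle panel, and Sox10, Pou3f1 and Foxd3 are filled in the right panel (5.48, 5.48 and 2.71).

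Among 20 genes known to be controlled by Sox10 or Egr2, 14 were tested in mutant against wild-type, of which 12 were lower and 2 higher. Limma's threshold was passed by 3, all lower, where 0.171% of all genes passed. Limma's unadjusted p was under 0.05 in 7, beside 12.0% of all genes. Fabp7, a fatty acid binding protein of glial precursors, had 2.998 and 3.93 RPKM in wild-type and 0.393 and 0.372 in the mutant, and fell by 2.16 on the log2 scale (limma adjusted p = 0.0064). Gjc3 fell by 1.85 (limma adjusted p = 0.00821), from 1.27 and 1.40 RPKM to 0.0127 and 0.00361. With no filter, and with all 6 libraries in the fit, 0 of all genes passed in this comparison, so these calls were lost too.

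The median of the 14 was -0.35 beside -0.10 over all genes. Others of the list differed little in the mean, such as Mia with a difference of -0.07 and Erbb3 with -0.01. The mutant libraries of Erbb3 lay on both sides of wild-type, with -0.45 to 0.43 in the pairs. In Ribotag RNA against wild-type 0 of 19 passed limma's threshold, 10 had an unadjusted p under 0.05, beside 19.5% of all genes, and 6 were at least 2-fold higher in all pairs, beside 2.34%. Against the mutant 6 of 18 rose and 0 fell, where 1.19% of all genes passed, among them Fabp7 (6.30), Gjc3 (4.96) and Mal (3.62) on the log2 scale. These 3 genes were under 0.5 RPKM in both mutant libraries and passed the filter only through the group in which they were high, so the list's counts are no support for a difference either.

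Of 24 close relatives of the 9 genes, from the SoxE, SoxB, SoxD, POU3, Egr, FoxD, AP-2, Zeb and Ets families, 22 were in the files. Between 12 and 14 were tested, and 0 passed limma's threshold in any comparison, with 1 at an unadjusted p under 0.05 in each. Over all genes tested that p was reached by 12.0% in mutant against wild-type, 19.5% in Ribotag against wild-type and 19.3% in Ribotag against mutant. Zeb1, the paralog of Zeb2, was at 14.9 to 20.5 RPKM over the libraries. Etv5, an Ets factor downstream of growth factor receptors, was at 17.8 and 14.6 RPKM in wild-type, 13.3 and 12.1 in the mutant and 11.7 and 12.1 in Ribotag RNA.

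Of 26 other regulators of crest and Schwann cells 24 were tested and 0 passed limma's threshold, with 3, 3 and 4 at an unadjusted p under 0.05 in the comparisons mutant against wild-type, Ribotag against wild-type and Ribotag against mutant. Over all genes tested the shares were 12.0%, 19.5% and 19.3%, in that order. In the mutant their median difference was -0.20, beside -0.10 over all genes. Yap1, a coactivator of the Hippo pathway, was at 27.2 to 43.4 RPKM and Twist1, a factor of crest and mesenchyme, at 28.6 to 35.6 RPKM over the libraries. Of 10 cofactors of the promyelinating programme, such as the deacetylases Hdac2 (62.1 to 109 RPKM) and Hdac1 (37.4 to 57.8 RPKM), all were tested and 0 passed. In the same order of comparisons, 3, 4 and 0 were at an unadjusted p under 0.05, beside the same shares of all genes.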

How the data were processed

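RNA-Seq was analysed in 6 libraries of E14.75 diaphragm, grouped by their titles and genotypes. The authors deposited RPKM per gene, with a mark for genes at the floor that the depth sets; per the submitters' processing notes, the tools and builds named are STAR and mm9. The program that made the RPKM, the annotation and the use of strand are not given in the sources used here. Counts were not used here, so the reads named are approximate. Symbols and positions came from a GRCm38 annotation joined by Ensembl identifier.

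Log2(RPKM + 0.5) was tested with limma 3.58.1 (lmFit, eBayes with a trend) in R 4.3.3, keeping genes that averaged 0.5 RPKM or more in the 4 libraries compared, with Benjamini-Hochberg adjustment over all of them and a threshold of 0.05. The fit was tested on simulated data. Tables and figures used Python 3.11.15, numpy 2.4.6, pandas 2.3.3 and matplotlib 3.10.9.

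The 9 genes and all gene lists were chosen with earlier results of these data known. All 9 genes were named. From lists of related genes, those past the threshold (at most 4 a comparison) or else the 2 most abundant were named, with Erbb3 and the 5 genes most alike by Pearson r over 6 libraries. Alike genes needed a mean RPKM of at least 0.5 and an SD at least 0.5 times that of the member. Mia, Pmp22, Th and Chat were chosen after their values were seen. Some genes that this rule names are not reported here.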

Additional observations from a re-analysis of the deposited data

How the results depend on the processing

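Over all alternatives, 66 of 75 values of single members kept their direction and their side of the threshold in mutant against wild-type, 74 of 90 in Ribotag against wild-type and 88 of 97 in Ribotag against mutant. Leaving out a library leaves 1 sample in a group, assumed to vary like the others. Foxd3 turned from -0.48 to 0.064 in the mutant without mutant 2 (lowest -1.015), and Zeb2 from -0.12 to 0.015 with quantile normalization; neither passed the threshold there. In mutant against wild-type, 24 genes passed; 45 did with a pseudocount of 0.01, 0 with no filter, 0 with all 6 libraries in the fit, and 10 to 106 with a library left out. Of the members 2 passed; 0 did with no filter, 1 with a mean RPKM of at least 1, which Pou3f1 misses, 0 with all 6 libraries, and 1 to 3 with a library left out. At 2-fold in all pairs, 1 was left at that mean, and 2 to 3 with a library left out. In Ribotag against wild-type, 1 gene passed; 2 did with a pseudocount of 0.01, 0 with no filter, 2 with median-ratio scaling, 138 with all 6 libraries, and 26 to 5965 with a library left out. Of the members 0 passed; 2 did with all 6 libraries and 2 to 5 with a library left out, and 3 to 5 were 2-fold higher. In Ribotag against mutant, 171 genes passed; 112 did with no filter, 83 with quantile normalization, 692 with all 6 libraries, and 112 to 3672 with a library left out. Of the members 3 passed; 0 did with no filter and 3 to 5 with a library left out, and 4 to 5 were 2-fold higher. The cause was not tested. With a replicate block on the numbers shared by Ribotag and mutant libraries, 842 genes passed, Tfap2b among them (adjusted p = 0.0119); the libraries are not from the same litters, there are only 2 pairs, and deviations of same-numbered libraries had a correlation of 0.168, so the numbers do not pair the samples. Counting error could not be given, as the files hold RPKM.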
